A study of Mus musculus with 9 samples.

Results

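The AP-1 transcription factors and their stress-responsive relatives were followed in mouse gastrocnemius, a calf muscle, after hindlimb disuse and after the return of load. The 9 genes examined were those of the Fos proteins (Fos, Fosb, Fosl1 and Fosl2), of the Jun proteins (Jun, Junb and Jund), and Atf3 and Maff, out of 55487 genes in the count table. They were chosen by name as basic leucine zipper factors of one class and not by their measured values, although earlier results of these libraries were known at the time. All 9 mice were wild-type, labelled as strain C57BL/6 (C57BL/6J in the study's text), and labelled male, whereas the study's methods describe females for the unloading procedure. Control mice (n = 4) lived in ordinary cages, Unloading mice (n = 2) were taken after 10 days without weight on the hind legs, and Reloading mice (n = 3) had 10 days of unloading and then 1 day of normal cage activity. The libraries were made from poly-A RNA of whole muscle, and the 2 Unloading libraries are the smallest group. The labels number the libraries as replicates without naming the animals, so that the p-values given here measure the spread between these libraries.

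AP-1 is a dimer. A Jun protein pairs with another Jun or with a Fos protein through the leucine zipper, and the pair binds DNA at a short palindrome, so the composition of the pool of subunits decides which dimers can form. Fos, Fosb, Jun and Junb are classic immediate-early genes, whose transcription is switched on by growth factors, calcium or stress through MAP kinases and is normally brief. Fosl1 and Fosl2 lack the strong activation domain of Fos and are typically induced later, Jund is made in most resting cells, Atf3 is an activating transcription factor induced by many stresses that pairs with Jun proteins, and Maff is a small Maf protein that lacks an activation domain and belongs to the wider AP-1 superfamily. In skeletal muscle, load, contraction and injury are known stimuli of these genes.

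The libraries held between 9252443 and 19612101 read pairs assigned to genes, so that 1 pair corresponded to between 0.0510 and 0.108 counts per 1000000 (CPM) before scaling. Fibre genes of skeletal muscle (Acta1, Ckm, Ttn and 5 others) summed to between 110700 and 163300 CPM in every library, as the tissue label calls for. Keratinocyte genes stood apart in 2 libraries, with 90.0 CPM of the skin keratin Krt2 in Control 2 and 40.5 in Reloading 1, against at most 0.199 CPM in the other 7. The scaling factors were between 0.928 and 0.960 in Control and Unloading and between 1.11 and 1.13 in Reloading, and without them the median log2 difference of all tested genes moved from 0.03 to 0.27 for Reloading against Unloading and from 0.01 to 0.25 for Reloading against Control. The share of passing genes that were higher then moved from 49.3% to 82.8% and from 50.9% to 80.2%.

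Of the 9 genes, 7 reached the count filter (0.784 CPM before scaling in at least 2 libraries) without the help of the Reloading libraries, and all 7 were higher at 1 day of reloading than at the end of unloading and higher than in Control (edgeR's quasi-likelihood test, adjusted p under the threshold of 0.05). Their fitted change from Unloading ran from 1.70-fold for Jun and 1.71-fold for Jund, which were not told apart, to 48.9-fold for Atf3. Fosb and Fosl1 were higher as well, but they passed the filter through the Reloading libraries only and had to differ in order to be tested. They are therefore described by their counts and left out of the tallies of genes higher in Reloading. Unloading itself passed for none of the 9. By the criterion used here, a higher level against both other groups, the 7 genes were still raised 1 day into reloading. No earlier time of reloading was measured, so whether any of them had been higher before cannot be said from these libraries.

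Of the 14851 genes tested, 18.5% were higher in Reloading than in Unloading, and 31.0% had every Reloading library above both Unloading libraries. The 7 of 7 genes that were higher and the 7 of 7 without overlap are to be read against those shares. Against Control, 43.5% of all tested genes passed, 22.1% were higher and 21.3% lower, and 24.2% were higher without overlap, where the factors counted 7 of 7 and 6 of 7. Both criteria together, a pass against Unloading and a pass against Control, were met by 14.3% of all tested genes. Among the 14013 genes that reached the filter without Reloading, 18.0% were higher than in Unloading and 21.6% higher than in Control. The median log2 change of the 7 genes was 1.38 against Unloading and 1.12 against Control, beside 0.03 and 0.01 for all tested genes. The Reloading libraries are shared by both comparisons, which are therefore not independent of each other.

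**Figure D1:**
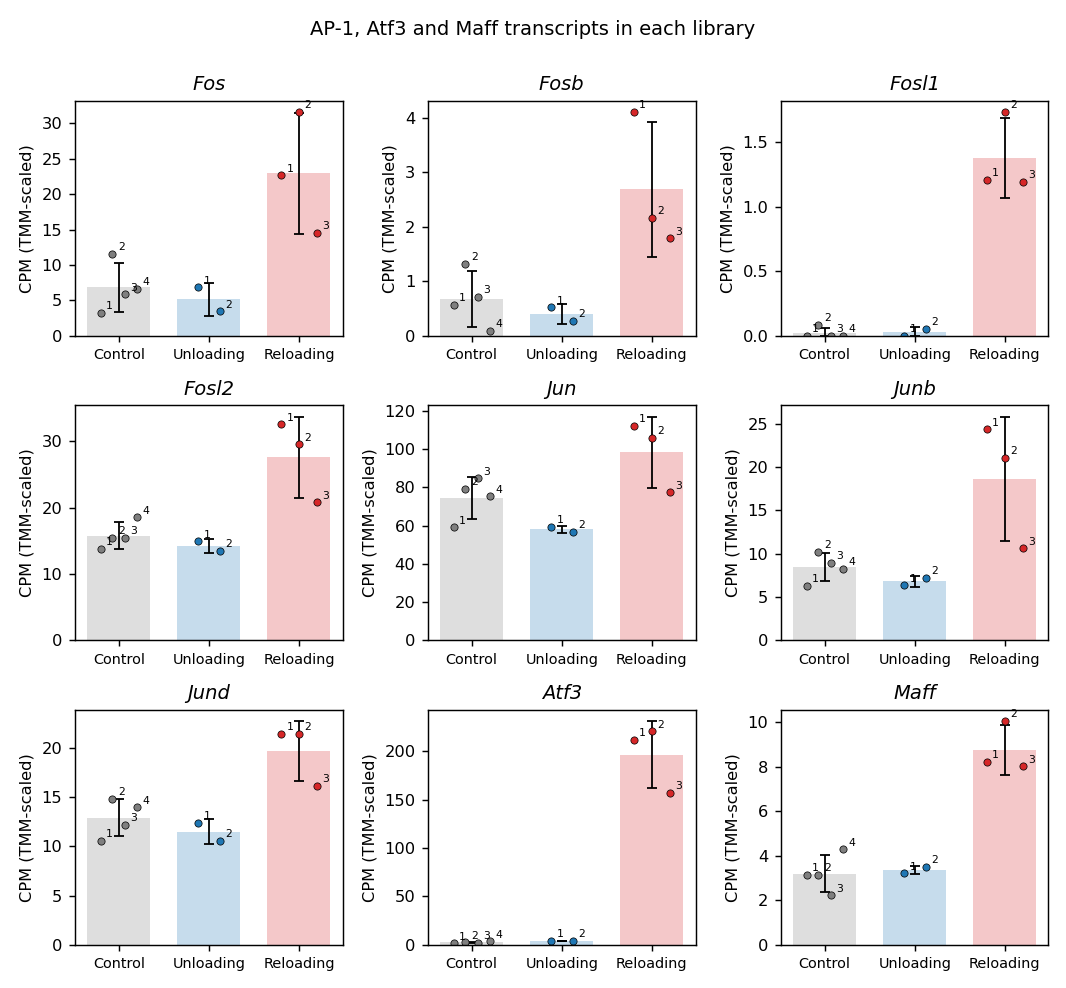
Level of each gene in CPM (vertical axes, scaled counts per 1000000, a separate linear scale per gene) in the 4 Control, 2 Unloading and 3 Reloading libraries. Points are libraries and the bars give the mean and SD of each group. Reloading libraries lie above all others for each gene except Jun, for which the lowest Reloading value, 77.4 CPM, lies within the Control range. Such a lack of overlap with both other groups held for 19.0% of all tested genes. Fosb and Fosl1 passed the count filter through Reloading only.

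The sequences before the start sites of 4 of the genes are shown because these genes carry the letters of the cAMP response element, TGACGTCA, or close relatives of it, which are bound by the same class of factors that the genes encode. RefSeq sequences for build GRCm38.p6 were at hand for 8 of the 9 genes, in 10 windows of 250 bases, of which 3 belonged to Maff. Fosl1 was not among them. Each is given on the strand of the gene and ends at the base before the RefSeq start site. Capitals mark TGACG in Fos, TGACG read on the other strand in Atf3 (CGTCA), TGACATCA in Jun and TGACGTCA in Maff. The windows are chr12:85473640-85473889 (plus strand) for Fos, chr4:95052223-95052472 (minus) for Jun, chr1:191183334-191183583 (minus) for Atf3 and chr15:79347270-79347519 (plus) for the second start site of Maff. The Atf3 and Maff windows lie inside the span of the annotated gene, downstream of its outermost start.
Fos: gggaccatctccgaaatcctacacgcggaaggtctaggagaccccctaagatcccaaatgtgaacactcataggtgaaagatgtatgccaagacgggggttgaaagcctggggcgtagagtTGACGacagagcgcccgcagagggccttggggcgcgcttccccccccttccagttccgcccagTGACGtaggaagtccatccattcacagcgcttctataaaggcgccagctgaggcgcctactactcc
Jun: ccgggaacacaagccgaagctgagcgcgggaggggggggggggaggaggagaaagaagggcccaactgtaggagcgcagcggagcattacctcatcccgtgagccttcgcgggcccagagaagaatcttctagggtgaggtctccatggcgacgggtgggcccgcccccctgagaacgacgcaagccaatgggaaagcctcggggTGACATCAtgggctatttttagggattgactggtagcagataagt
Atf3: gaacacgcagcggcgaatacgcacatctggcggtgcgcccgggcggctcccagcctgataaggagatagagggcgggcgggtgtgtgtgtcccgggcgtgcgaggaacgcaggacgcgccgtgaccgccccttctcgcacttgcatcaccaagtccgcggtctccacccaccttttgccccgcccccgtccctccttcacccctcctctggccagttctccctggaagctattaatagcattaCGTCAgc
Maff: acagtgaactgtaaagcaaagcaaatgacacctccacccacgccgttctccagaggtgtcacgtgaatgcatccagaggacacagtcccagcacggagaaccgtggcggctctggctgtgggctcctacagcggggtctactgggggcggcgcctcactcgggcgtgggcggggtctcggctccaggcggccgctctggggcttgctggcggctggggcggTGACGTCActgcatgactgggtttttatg

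TGACG, the core of the cAMP response element, was found on either strand in 6 of the 10 windows, those of Fos, Fosb, Junb, Atf3 and 2 of Maff, beside 17.8% of the 32851 RefSeq promoters of the same length. These letters were added to the search after the windows had been read, and they overlap the full element. In Fos they began 129 and 66 bases before the start site, and in Atf3 they ended 3 bases before it. The full element TGACGTCA was found only in the second Maff window, from 29 to 22 bases before the start, and in 1.55% of all promoters. The variant TGACATCA, the kind of AP-1 site through which Jun is known to act on its own gene, stood from 45 to 38 bases before the start in Jun and at the same distance in the third Maff window, against 2.93% of all promoters. The AP-1 site itself, TGACTCA, was in none of the 10 windows and in 4.46% of all promoters, and the CArG box of serum response factor was in none and in 1.47%. In Atf3, TGATGCAA, a match to the C/EBP-ATF composite element TGATGNAA, lay from 110 to 103 bases before the start, an element found in 3.45% of all promoters. GGGCGG was found in 7 windows of 6 genes and in 32.7% of promoters, TATAAA in the Fos window and in 12.4%, CCAAT in Jun and Junb and in 33.8%, and GAANNTTC, a pair of heat shock units, in Fosl2 and Jun and in 6.69%. A match is a run of letters and no evidence of binding, and a window without one says nothing of more distant sequence. The Jund window ends at chr8:70697738, upstream of the counted gene, which starts at 70698949. It therefore does not cover the bases just before the counted gene.

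**Figure D2:**
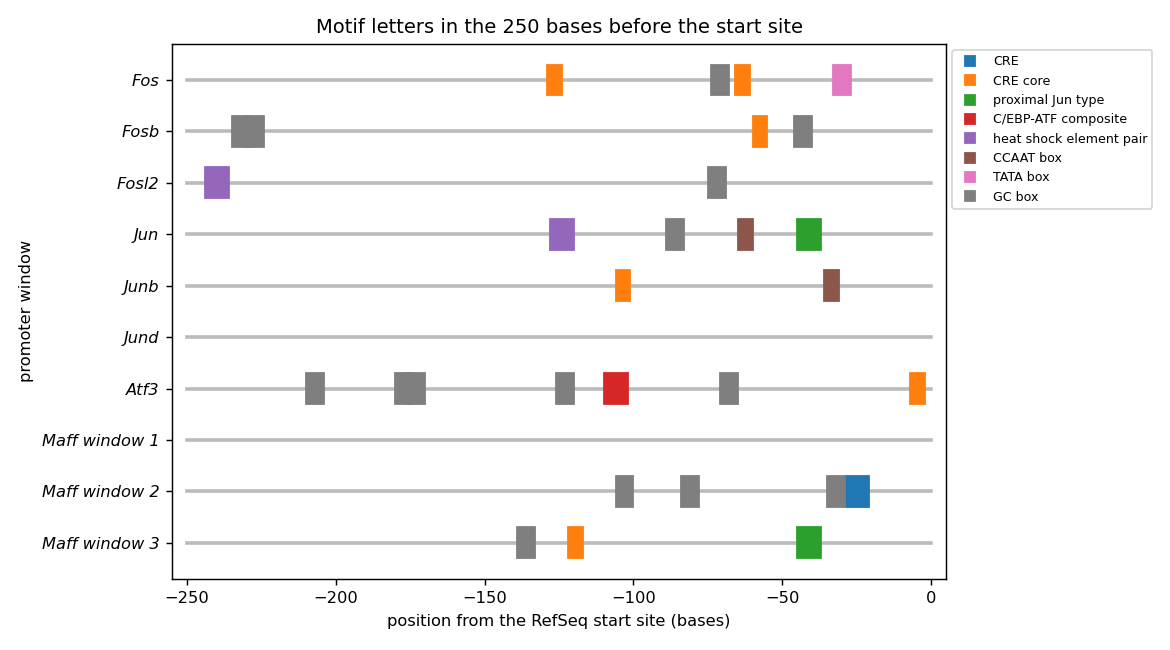
Positions of the motif letters (coloured blocks) in the 250 bases before each RefSeq start site, with the horizontal axis in bases from that site, for the 10 windows of 8 genes. The CRE core TGACG appears in the windows of Fos, Fosb, Junb, Atf3 and Maff, the full CRE only in the second Maff window, and no searched letters in the Jund window or the first Maff window. The Jund window ends upstream of the counted gene and does not cover the bases just before it.

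Atf3 (ENSMUSG00000026628, GRCm38 chr1:191170296-191218039, minus strand) had the highest fitted change of the 7 genes in either comparison. It measured 1.58, 2.65, 2.22 and 3.69 CPM in Control 1 to Control 4, 3.97 and 4.04 CPM in Unloading 1 and Unloading 2, and 212, 221 and 157 CPM in Reloading 1 to Reloading 3. Every Reloading library was far above all others, and both Unloading libraries lay just above the 4 Control libraries. Reloading exceeded Unloading 48.9-fold (log2 5.61 ± 0.20 SE, adjusted p = 1.44e-10, edgeR) and Control 76.1-fold (log2 6.25 ± 0.17 SE, adjusted p = 2.33e-12). Ordered by log2 change among the 14851 tested genes, Atf3 was in position 19 against Unloading and in position 10 against Control. The difference of Unloading from Control, log2 0.64 ± 0.26 SE, had an adjusted p of 0.138 by edgeR and did not pass. Atf3 was the only one of the 9 genes whose Unloading and Control libraries did not overlap, which held in that direction for 16.4% of all tested genes.

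Fosl1 (ENSMUSG00000024912, chr19:5447547-5455946, plus strand), which encodes Fra-1, was all but undetected outside Reloading. It had 15, 24 and 18 counts in Reloading 1 to Reloading 3, 1 count in Control 2, 1 in Unloading 2 and 0 in the other 4 libraries. These correspond to 1.21, 1.74 and 1.19 CPM in Reloading and to at most 0.0829 CPM elsewhere, and Fosl1 reached the filter level of 0.784 CPM in no library outside Reloading, so no p is given for it. The ratio of counts per depth was 43.7 against Unloading (57 counts against 1, 95% exact interval from 7.53 to 1750) and 64.2 against Control (57 against 1, 11.1 to 2580), both intervals covering counting error only. These intervals take in the fold changes of Atf3, so the order of Atf3 and Fosl1 is not settled. On the genome 1163 exon bases of Fosl1 are shared with Ccdc85b on the opposite strand, and the counting did not use strand. Ccdc85b lay between 24.5 and 32.6 CPM in all 9 libraries and did not pass in either comparison (log2 -0.18, adjusted p = 0.206 against Unloading, and log2 -0.17, adjusted p = 0.165 against Control).

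Fos (ENSMUSG00000021250, chr12:85473890-85477273, plus strand), the founding partner of Jun, measured 3.27, 11.6, 5.86 and 6.61 CPM in Control 1 to Control 4, 6.81 and 3.44 CPM in Unloading 1 and 2, and 22.7, 31.6 and 14.5 CPM in Reloading 1 to 3. Reloading did not overlap with the other groups, while the Unloading values lay within the Control range. Reloading 3 was much closer to the highest Control library than Reloading 1 and Reloading 2 were, and the 4 Control libraries spread widely. Reloading was 4.58-fold above Unloading for Fos (log2 2.20 ± 0.39 SE, adjusted p = 0.000524, edgeR) and 3.28-fold above Control (log2 1.71 ± 0.31 SE, adjusted p = 0.000365). The 250 bases shown for Fos hold the TATA box and a cAMP response element core close to the start that are long known from this promoter.

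Fosb (ENSMUSG00000003545, chr7:19302696-19310051, minus strand), whose shorter splice form is known to accumulate on repeated stimulation, was scarce throughout. It measured 0.564, 1.33, 0.715 and 0.0858 CPM in Control 1 to 4, 0.524 and 0.273 CPM in Unloading 1 and 2, and 4.11, 2.17 and 1.79 CPM in Reloading 1 to 3, which is between 27 and 51 counts per Reloading library and between 1 and 16 in the others. All 3 Reloading libraries lay above all others. Outside Reloading 1 library, Control 2, reached the filter level, so the fitted changes of 6.80-fold against Unloading (log2 2.77 ± 0.60 SE) and 3.84-fold against Control (log2 1.94 ± 0.45 SE) are given with no p. Counts per gene do not separate the splice forms.

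Fosl2 (ENSMUSG00000029135, chr5:32135801-32157842, plus strand), which encodes Fra-2, had a higher and more even baseline. It measured 13.8, 15.4, 15.4 and 18.5 CPM in Control 1 to 4, 14.9 and 13.4 CPM in Unloading 1 and 2, and 32.6, 29.5 and 20.8 CPM in Reloading 1 to 3. Reloading did not overlap with the other groups. It was 1.95-fold higher than in Unloading (log2 0.96 ± 0.17 SE, adjusted p = 0.000408, edgeR) and 1.74-fold higher than in Control (log2 0.80 ± 0.14 SE, adjusted p = 0.000265).

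Among the Jun genes, Junb (ENSMUSG00000052837, chr8:84976910-84978718, minus strand) had the highest fitted changes. It measured 6.32, 10.2, 8.93 and 8.24 CPM in Control 1 to 4, 6.36 and 7.21 CPM in Unloading 1 and 2, and 24.3, 21.0 and 10.6 CPM in Reloading 1 to 3. Reloading 3 lay barely above Control 2, while Reloading 1 and Reloading 2 were well above every other library. The change was 2.72-fold against Unloading (log2 1.44 ± 0.27 SE, adjusted p = 0.000806, edgeR) and 2.18-fold against Control (log2 1.12 ± 0.22 SE, adjusted p = 0.00079).

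Jund (ENSMUSG00000071076, chr8:70698949-70700616, plus strand), the constitutive member of the family, measured 10.6, 14.8, 12.2 and 14.0 CPM in Control 1 to 4, 12.4 and 10.6 CPM in Unloading 1 and 2, and 21.4, 21.5 and 16.2 CPM in Reloading 1 to 3. The 3 Reloading libraries were above all others. Jund was 1.71-fold higher than in Unloading (log2 0.78 ± 0.16 SE, adjusted p = 0.00131, edgeR) and 1.52-fold higher than in Control (log2 0.60 ± 0.13 SE, adjusted p = 0.00172). Its exons share 877 of their 1668 bases with Gm11175 on the other strand, which had 0 counts in every library. Because the counting did not use strand, a pair lying wholly in those bases fits both genes alike. None was counted for Gm11175, so such pairs were not counted for Jund either, as far as both genes were treated alike.

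Jun (ENSMUSG00000052684, chr4:95049034-95052222, minus strand), the founding member of its family and a partner of the Fos proteins, was the most abundant of the 9 outside Reloading. It measured 59.2, 79.2, 84.7 and 75.4 CPM in Control 1 to 4, 59.3 and 56.8 CPM in Unloading 1 and 2, and 112, 106 and 77.4 CPM in Reloading 1 to 3. Both Unloading libraries were about as low as the lowest Control library, and Reloading 3 lay within the Control range. Reloading was 1.70-fold above Unloading (log2 0.76 ± 0.15 SE, adjusted p = 0.00106, edgeR) and 1.31-fold above Control (log2 0.39 ± 0.12 SE, adjusted p = 0.0169). The second of these calls was lost without Reloading 1 (adjusted p = 0.0944, edgeR), without Reloading 2 (adjusted p = 0.0792) and with a robust fit (adjusted p = 0.0635).

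The Jun locus also holds an antisense transcript, Junos (ENSMUSG00000087366, plus strand), whose exons share 232 bases with those of Jun. It was singled out here after its values had been seen. Junos measured between 6.55 and 7.67 CPM in Control, 9.58 and 8.25 CPM in Unloading 1 and 2, and 2.82, 3.98 and 4.57 CPM in Reloading 1 to 3. Its groups lay in the reverse order of the Jun means, although Jun did not pass between Unloading and Control (adjusted p = 0.116, edgeR). Junos was lower in Reloading than in Unloading (log2 -1.21, adjusted p = 8.36e-05, edgeR) and than in Control (log2 -0.91, adjusted p = 0.000287). Because the counting did not use strand, reads of Jun and Junos cannot be told apart where they overlap.

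Maff (ENSMUSG00000042622, chr15:79346621-79359076, plus strand) measured 3.16, 3.15, 2.22 and 4.29 CPM in Control 1 to 4, 3.22 and 3.50 CPM in Unloading 1 and 2, and 8.22, 10.1 and 8.01 CPM in Reloading 1 to 3. The 3 Reloading libraries were close together and all above the others. Maff was 2.60-fold higher than in Unloading (log2 1.38 ± 0.21 SE, adjusted p = 0.000142, edgeR) and 2.75-fold higher than in Control (log2 1.46 ± 0.18 SE, adjusted p = 1.19e-05). Unloading and Control differed by log2 0.09 ± 0.22 SE (adjusted p = 0.849, edgeR).

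Unloading for 10 days moved none of the 9 genes past the threshold, where 9.90% of all tested genes passed, 4.40% higher and 5.50% lower. By edgeR 2 of the 9 had an unadjusted p under 0.05, Jun and Atf3, and DESeq2 gave 2 as well, with 0 after adjustment and no adjusted p for Fosb and Fosl1. The Jun difference was log2 -0.37 ± 0.14 SE (adjusted p = 0.116, edgeR). Fos, Fosb, Fosl2, Junb and Jund had log2 differences of -0.48, -0.83, -0.16, -0.32 and -0.18 with edgeR adjusted p between 0.493 and 0.572, and Fosl1 had too few counts in either group for a fold. With 2 Unloading libraries and standard errors between 0.14 and 0.71 on the log2 scale for the 8 genes other than Fosl1, small changes in disuse would not be detectable. In each of the 7 genes with a test, Reloading thus lay above both other groups, with Unloading and Control not told apart.

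**Figure D3:**
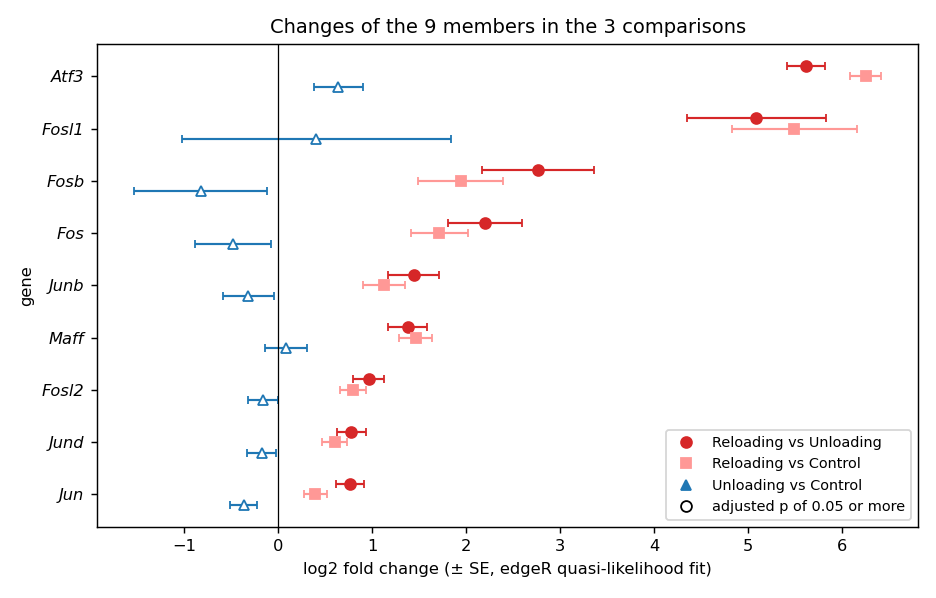
Log2 fold change with its standard error (horizontal axes) of each gene in the 3 comparisons, with a vertical line at 0 and open symbols where the adjusted p was 0.05 or more. Changes in Reloading reached 5.61 for Atf3 against Unloading and 6.25 against Control, whereas those of Unloading against Control lay on both sides of 0 and none passed. The Fosl1 values rest on 1 count in each of the other groups, and Fosb and Fosl1 passed the count filter through Reloading only.

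The 3 Reloading libraries were not alike. Reloading 3 held the lowest value of its group for all 9 genes, a position it took in 58.4% of the 2129 genes raised against both other groups and in 33.9% of all tested genes. Without Reloading 3 the log2 changes against Unloading were 2.45 for Fos, 1.73 for Junb and 0.91 for Jun, all passing. Control 1 held the lowest Control value for 7 of the 9 genes (38.5% of the raised genes, 27.9% of all tested genes) and Control 2 the highest for 5 (37.6% and 27.0%). For Fosl1 that lowest value, 0, was shared with Control 3 and Control 4. Without both Control 2 and Reloading 1, the libraries with keratinocyte transcripts, the calls of the 7 genes against Unloading were kept, and those against Control too except that of Jun (log2 0.32, adjusted p = 0.0926, edgeR).

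Per length of exon, levels can be set beside each other between genes, as fragments per kilobase and per 1000000 fragments (FPKM). The full exon length was used, also where bases are shared with a gene on the other strand. Shared were 877 of 1668 bases for Jund, 1163 of 2033 for Fosl1 and 232 of 3189 for Jun. If reads there were left uncounted, as the lack of Gm11175 counts points to for Jund, the levels of these genes would be too low. In Control the order of mean levels was Jun with 23.4 ± 3.44 FPKM (SD, n = 4), Jund 7.74 ± 1.13, Junb 4.65 ± 0.896, Fos 2.91 ± 1.48, Fosl2 1.63 ± 0.206, Maff 1.24 ± 0.327, Atf3 1.18 ± 0.412, Fosb 0.108 ± 0.0820 and Fosl1 0.0102 ± 0.0204. The neighbours from Junb down to Atf3 overlapped each with the next, as did Fosb and Fosl1. In Reloading the first place was taken by Atf3 with 91.2 ± 16.1 FPKM (SD, n = 3), above Jun with 30.9 ± 5.82, and no Atf3 library overlapped with any Jun library. Jund (11.8 ± 1.83 FPKM), Junb (10.3 ± 3.97) and Fos (9.74 ± 3.64) followed and overlapped among themselves. Maff (3.38 ± 0.433 FPKM) and Fosl2 (2.85 ± 0.631) overlapped as well, and Fosl1 (0.678 ± 0.152) and Fosb (0.431 ± 0.200) came last. In Unloading the order ran from Jun (18.2 ± 0.557 FPKM, SD, n = 2), Jund (6.90 ± 0.774), Junb (3.75 ± 0.332), Fos (2.18 ± 1.01), Atf3 (1.86 ± 0.0250), Fosl2 (1.46 ± 0.106) and Maff (1.29 ± 0.0758) to Fosb (0.0639 ± 0.0284) and Fosl1 (0.0134 ± 0.0190). There the range of Fos took in that of Atf3 and reached that of Fosl2, and no other neighbours overlapped.

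The makeup of each family's transcript pool can be described from the same values, with no test and with the same limit of shared exon bases. The summed level of the 4 Fos genes was 4.66 ± 1.61 FPKM (SD, n = 4) in Control, 3.72 ± 1.13 (n = 2) in Unloading and 13.7 ± 4.28 (n = 3) in Reloading. Fos made up 59.8% ± 10.2, 57.1% ± 9.91 and 70.2% ± 4.98 of that sum in Control, Unloading and Reloading, and Fosl2 37.7% ± 10.6, 40.8% ± 9.51 and 21.4% ± 3.62. The Fosl2 share was between 17.2% and 23.6% in Reloading and reached down to 23.5% in Control 2, so that these ranges overlap. Fosl1 held between 4.17% and 6.38% of the pool in Reloading and at most 0.920% elsewhere. The 3 Jun genes summed to 35.8 ± 5.07, 28.9 ± 0.999 and 53.0 ± 11.6 FPKM in Control, Unloading and Reloading. Within them the share of Jun was 65.4% ± 2.25, 63.1% ± 0.252 and 58.6% ± 2.06, that of Junb 12.9% ± 0.936, 13.0% ± 1.60 and 18.9% ± 3.74, and that of Jund 21.7% ± 1.90, 23.9% ± 1.86 and 22.5% ± 1.73. The Jun share was lower in each Reloading library than in any other library, and the Junb share was higher. Taken from raw counts, without division by length, Fosl2 and not Fos held most of the Fos family, with 69.0%, 72.6% and 51.2% in Control, Unloading and Reloading against 28.1%, 25.3% and 41.3% for Fos.

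**Figure D4:**
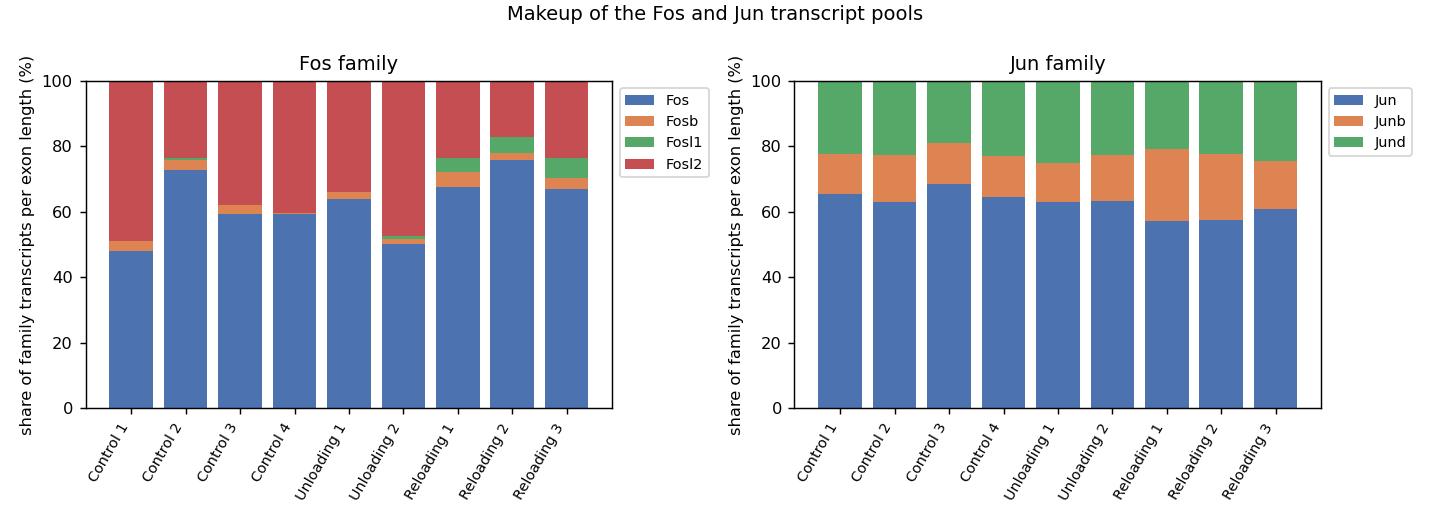
Share of each gene in the summed level of its family (vertical axes, percent, levels per exon length) in each of the 9 libraries. In the Fos family Fosl1 reached between 4.17% and 6.38% in Reloading, and in the Jun family Jun remained the main component in every library while Junb took between 14.7% and 21.9% in Reloading.

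Other basic leucine zipper factors include partners and competitors of AP-1. Of 32 listed, 29 could be tested. Reloading exceeded Unloading in 7 of them and fell below it in 7, where 18.5% of all tested genes were higher and 19.0% lower, with a median log2 change of 0.06 (0.03 for all genes). With library totals as the only scaling the split was 14 higher and 2 lower, and without Unloading 1 the lower genes numbered 4. Bach2, a repressor that pairs with small Maf proteins, was 2.28-fold higher (log2 1.19 ± 0.29 SE, adjusted p = 0.00506, edgeR), and Ddit3, the CHOP protein of the stress response, was 1.80-fold higher. Atf4, which is translated under stress and acts upstream of both Ddit3 and Atf3, was 1.48-fold higher (log2 0.56 ± 0.08 SE, adjusted p = 0.000113), with 254.8, 229.5 and 216.3 CPM in Reloading 1 to 3 against 157.6 and 159.0 CPM in Unloading.

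Cebpd, a C/EBP protein of the acute-phase response, had 55.2 and 25.2 CPM in Unloading against between 9.70 and 16.4 CPM in Control (log2 1.62 ± 0.26 SE, adjusted p = 0.00234, edgeR). Without Unloading 1 that difference was log2 0.96 (adjusted p = 0.0888, edgeR), and the lower level in Reloading than in Unloading (log2 -0.77, adjusted p = 0.0322) was then log2 -0.12 (adjusted p = 0.763). Leaving out Reloading 1 or Reloading 2 also ended the latter call (adjusted p = 0.0837 and 0.0987), which was lost in 9 of 19 alternatives, DESeq2 among them (adjusted p = 0.140). Atf2, which pairs with Jun at cAMP response elements, was 1.28-fold lower than in Unloading (log2 -0.35 ± 0.10 SE, adjusted p = 0.0122), a call lost with library totals only (adjusted p = 0.434), without Unloading 1 (0.165) and with the block by description number (0.0691). Jdp2, a repressive Jun partner, did not pass (log2 0.40 ± 0.21 SE, adjusted p = 0.155, edgeR) and did so with library totals only (adjusted p = 0.0254) and without Reloading 1 (0.0387). Batf, the AP-1 factor of lymphocytes, had between 0 and 3 counts per library and was not tested.

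AP-1 proteins are activated by MAP kinases. Against Unloading, 7 of the 31 tested MAP kinases and associated kinases were higher at 1 day of reloading and 8 were lower, beside 18.5% and 19.0% of all tested genes, with a median log2 change of -0.04. With library totals only 13 were higher and 1 lower, and without either Unloading library 4 were higher. Rps6ka5, the kinase MSK1 that phosphorylates chromatin and CREB at immediate-early genes, fell by 1.58 on the log2 scale (± 0.12 SE, adjusted p = 3.29e-07, edgeR), from 16.4 and 16.1 CPM in Unloading to 6.04, 5.28 and 4.97 CPM in Reloading 1 to 3. Every Reloading library was below every other library. Map3k14, the NF-kappa-B-inducing kinase, was 2.76-fold higher (adjusted p = 4.67e-06), Map3k8 was 2.17-fold higher (adjusted p = 0.00697) and Mapk11, a p38 kinase, was 2.00-fold higher (adjusted p = 0.0161). The calls for Map3k8 and Mapk11 were lost without Unloading 2 (adjusted p = 0.0671 and 0.0602, edgeR), that for Mapk11 also without Unloading 1 (0.0997) or Reloading 2 (0.0576), and both with the block by description number (0.0536 and 0.0837).

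Among serum response factor, its cofactors and the Elk factors, 2 of 6 tested genes were higher than in Unloading and 2 lower. These counts stand beside 18.5% and 19.0% of all tested genes, and fewer than 2 were lower in 11 of 19 alternatives. Mrtfa, the actin-regulated cofactor of serum response factor, was 1.79-fold higher (log2 0.84 ± 0.11 SE, adjusted p = 5.5e-05, edgeR). Its levels were 29.9 and 36.2 CPM in Unloading and 59.4, 60.4 and 58.7 CPM in Reloading 1 to 3, with between 34.5 and 46.0 CPM in Control. Elk3 was 1.48-fold higher (adjusted p = 0.00678, and 0.0699 without Unloading 2), and Elk4 and Elk1 were lower by log2 -0.41 (adjusted p = 0.00248) and -0.37 (adjusted p = 0.0479), calls that were both lost with library totals only (adjusted p = 0.176 and 0.488). That for Elk1 was lost in 11 of 19 alternatives, among them DESeq2 (adjusted p = 0.101) and leaving out Unloading 2 (0.319), Reloading 1 (0.0983), Reloading 2 (0.157), Control 1 (0.0546) or Control 4 (0.0554). Srf itself was not told apart from Unloading (log2 0.12 ± 0.09 SE, adjusted p = 0.314, edgeR), although with library totals only it passed (adjusted p = 0.00314).

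The phosphatases and inhibitors that switch MAP kinases off again counted 10 higher and 5 lower of 17 tested, or 8 and 5 of 15 (median log2 change 0.42) without Dusp2 and Dusp5, which passed the filter through Reloading only, beside 18.5% and 19.0% of all tested genes. Of the 17, 11 were higher and 2 lower with library totals only, 6 were higher without Unloading 1, and 2 or 3 were lower without any 1 of the Unloading or Reloading libraries. Dusp5, an ERK phosphatase, had 1 and 2 counts in Unloading 1 and 2, between 3 and 6 in Control, and 51, 46 and 46 in Reloading 1 to 3. The ratio of counts per depth was 36.5 against Unloading (143 counts against 3, 95% exact interval from 12.2 to 179, counting error only), and the fitted change against Control was 8.82-fold. Dusp2 was at a fitted 6.83-fold of its Unloading level. Spry4, a Sprouty inhibitor of receptor signalling, was 3.42-fold higher than in Unloading (adjusted p = 0.000277, edgeR) and Dusp4 2.13-fold (adjusted p = 0.0381, which became 0.279, 0.106 and 0.0892 without Unloading 1, Reloading 1 and Reloading 2, and 0.0708 by DESeq2). Dusp1, the best known of these phosphatases as an immediate-early gene, was 1.36-fold higher than in Unloading (log2 0.45 ± 0.12 SE, adjusted p = 0.00732, edgeR) and did not pass against Control (adjusted p = 0.109). The first call was lost without Unloading 1 (adjusted p = 0.117) and with the block by description number (0.0583), whereas against Control Dusp1 passed with library totals only (0.000969), with no count filter (0.0429), with the block by title number (0.00953) and without Control 4 (0.0281).

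Transcripts of Fos and Jun genes carry AU-rich elements and are short-lived, and proteins that act on such transcripts counted 3 higher and 1 lower of 14 tested, with a median log2 change of 0.06, beside 18.5% and 19.0% of all tested genes (6 higher and 0 lower with library totals only, and 1 higher without Unloading 2). Btg2, which recruits deadenylase, was 4.05-fold higher (log2 2.02 ± 0.18 SE, adjusted p = 1.25e-06, edgeR) and Zfp36l2 1.39-fold (adjusted p = 0.00546, and 0.0682 without Unloading 2). Cnot7, a subunit of the deadenylase complex, was lower by log2 -0.44 (adjusted p = 0.00215, and 0.118 with library totals only). Zfp36, or tristetraprolin, did not pass (log2 0.27 ± 0.26 SE, adjusted p = 0.425, edgeR), and neither did Zfp36l1 (log2 0.33, adjusted p = 0.105), which passed with library totals only and without Control 1.

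Factors of AP-1 protein turnover and cofactors counted 4 higher and 5 lower of 14 tested, with a median log2 change of -0.09, beside 18.5% and 19.0% of all tested genes. With library totals only 5 were higher and 1 lower, and 2 were higher without Reloading 1, Unloading 1 or Unloading 2 and by DESeq2. Usp28, a deubiquitinase with Jun among its substrates, was 3.32-fold higher (log2 1.73 ± 0.09 SE, adjusted p = 6.64e-09, edgeR), with 76.2 and 67.6 CPM in Unloading and 248.5, 253.0 and 214.6 CPM in Reloading 1 to 3. Nab2 and Nab1, corepressors of Egr proteins, were 2.67-fold (adjusted p = 0.000372) and 1.46-fold (adjusted p = 0.0252) higher, and the acetyltransferase gene Kat2b was lower by log2 -0.83 (adjusted p = 3.73e-05). The Nab1 call was lost in 6 of 19 alternatives, namely DESeq2 (adjusted p = 0.0621), without Control 2 and Reloading 1 together (0.0744), and without Reloading 1 (0.0655), Reloading 2 (0.107), Unloading 1 (0.106) or Unloading 2 (0.0979).

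Genes that have been described as AP-1 targets counted 18 higher and 0 lower against Unloading among the 28 that reached the filter without Reloading, and 19 higher and 0 lower against Control, with median log2 changes of 0.98 and 1.11, beside 18.0% and 21.6% of such genes higher. Over the whole list, genes were lower than in Unloading in 4 of 19 alternatives. There were 2 with no count filter, and 1 each with only the 2 groups compared, without Control 3 and without Reloading 3. A further 5 genes, Ccl2, Mmp10, Mt2, Ptgs2 and Sphk1, passed the filter through Reloading only. The list was written with earlier results of these libraries known, so its direction is no independent evidence, and binding was not measured. Ccnd1, the cyclin D1 gene, rose 10.1-fold from Unloading to Reloading (adjusted p = 4.04e-07, edgeR), and the chemokine gene Ccl2 was at a fitted 10.5-fold of its Unloading level. Mmp10, a matrix metalloproteinase, had 34, 27 and 25 counts in Reloading 1 to 3 and 0 in each of the other 6 libraries. Against the limit of 3 counts over the whole group it was at least 22.0-fold higher than in Unloading and at least 32.3-fold higher than in Control.

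Immediate-early genes of other families counted 14 higher and 0 lower against Unloading among the 17 that reached the filter without Reloading, and 17 higher against Control, with medians of 1.23 and 1.28 on the log2 scale. Among all genes that reached the filter in this way, 18.0% were higher than in Unloading and 21.6% higher than in Control. Egr2, Egr3 and Nr4a2 passed it through Reloading only. Egr1, Egr3, Arc and Nr4a3 had the highest fitted changes against Unloading. Egr1, a zinc finger factor usually induced together with Fos, measured 3.72, 13.5, 13.3 and 6.26 CPM in Control 1 to 4, 3.67 and 3.72 CPM in Unloading, and 46.9, 49.2 and 28.1 CPM in Reloading 1 to 3, and Reloading 3 was lowest of its group here too. The change was 11.2-fold (log2 3.48 ± 0.40 SE, adjusted p = 1.2e-05, edgeR). Nr4a3, a nuclear receptor of exercised muscle, was 9.91-fold higher (log2 3.31 ± 0.17 SE, adjusted p = 4.99e-09), and Arc 12.1-fold (adjusted p = 2.6e-06). The fitted change of Egr3 was 22.8-fold, from 2 counts in each Unloading library. Egr1 was also lower in Unloading than in Control (log2 -1.36 ± 0.41 SE, adjusted p = 0.0498), a call lost in 11 of 19 alternatives, among them DESeq2 (adjusted p = 0.120), DESeq2 size factors (0.0502), the robust fit (0.235) and leaving out Unloading 1 (0.283), Unloading 2 (0.164), Control 2 (0.0940), Control 3 (0.115), Reloading 1 (0.0512) or Reloading 2 (0.0595). In Unloading against Control the 8 lists around the 9 factors held between 0 and 3 higher and between 0 and 2 lower genes each, beside 4.40% and 5.50% of all tested genes.

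**Figure D5:**
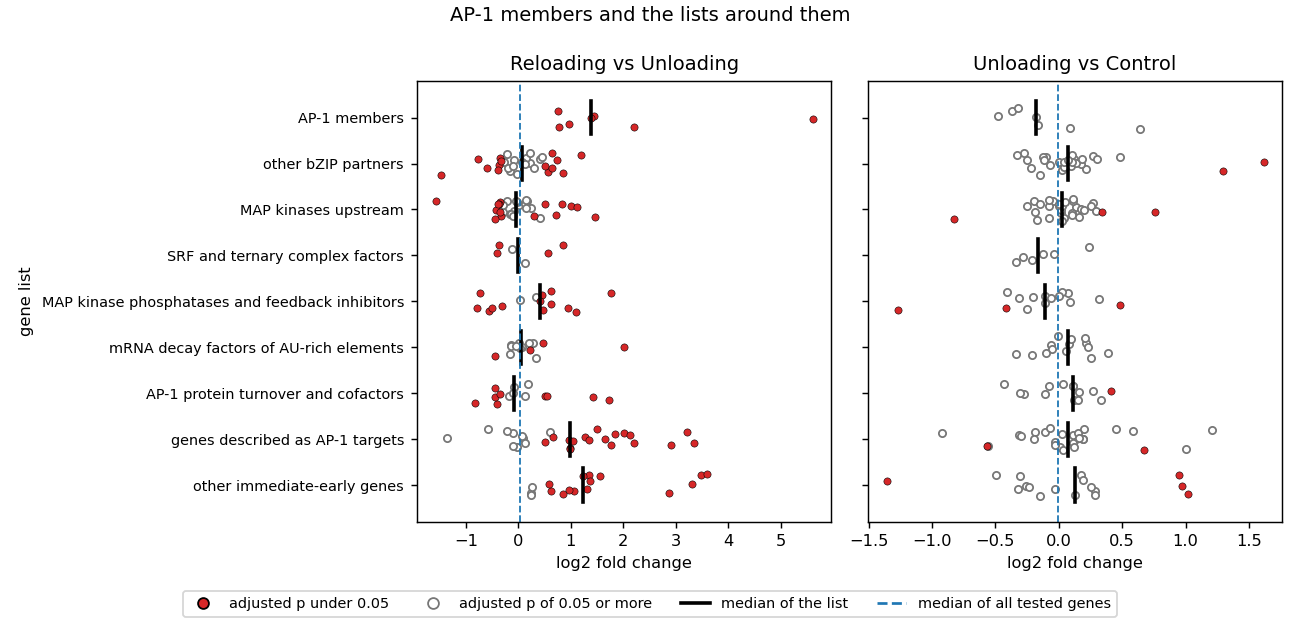
Log2 fold change of each gene that reached the count filter without Reloading (points, filled where the adjusted p is under 0.05) in the lists of AP-1 members, partners, kinases, phosphatases, decay factors, cofactors, targets and other immediate-early genes, for Reloading against Unloading (left) and Unloading against Control (right). Short vertical bars are the list medians and the dashed line is the median of all tested genes. On the left the medians are 1.38 for the AP-1 members, 0.98 for the described targets, 1.23 for the other immediate-early genes and 0.42 for the phosphatases and inhibitors, and those of the other lists lie close to the dashed line.

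Several cell type markers moved with Reloading as well. The counts of genes given here are to be read beside the 18.5% of all tested genes higher and 19.0% lower than in Unloading. Summed macrophage genes were between 93.0 and 113 CPM in Control, 96.0 and 98.4 in Unloading and between 182 and 206 in Reloading, with 10 of 12 genes higher than in Unloading. Endothelial genes summed to between 159 and 181, 151 and 153, and 262 and 323 CPM in the same order (6 of 8 higher), and Schwann cell genes to between 35.8 and 55.9, 39.1 and 51.0, and 87.8 and 118 CPM (4 of 5 higher). Fibre genes were lower in Reloading, with sums between 110700 and 123100 CPM against at least 151000 in the other libraries, and 5 of 8 were lower than in Unloading. Smooth muscle and pericyte genes counted 6 higher and 1 lower of 8. They summed to between 385 and 427 CPM in Unloading and between 413 and 439 in Reloading. Rgs5 made up most of each sum and hid the other genes, with 340.4 and 305.4 CPM in Unloading and between 259.2 and 272.4 in Reloading. Acta2 had 19.31 and 20.65 CPM in Unloading and between 52.07 and 58.81 in Reloading. Myh11 had 24.85 and 20.44 CPM in Unloading and between 39.7 and 49.01 in Reloading. Satellite cell genes (1 of 5 tested higher), adipocyte genes (1 of 5) and fibroblast genes (3 higher and 2 lower of 8) moved less, erythrocyte and keratinocyte genes had 0 of 5 and 0 of 8 past the threshold by edgeR, and neutrophil and T cell genes summed to at most 6.99 and 1.24 CPM in any library. No list had all of its markers at 0. Their part in the results for the 9 factors was not tested, and in RNA of whole muscle fewer cells of a type and less RNA per cell cannot be told apart.

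The genes most like each factor across the 9 libraries were named from Pearson's r of log2 CPM over 9872 or 9873 genes, as a description, since all points share the same 3 groups. Atf3 was closest to Dysf, the membrane repair gene dysferlin (r = 0.998), and to Sec61a1 and Mknk2. Fosl1 was closest to Plpp1 (r = 0.996), Maff to Spsb2 (r = 0.981) and Csrnp1 (r = 0.980), Fosl2 to Msh6 (r = 0.988), Jun to Rap1gap (r = 0.987), Junb to Med10 (r = 0.986) and Fosb to Taok3 (r = 0.979). Fos and Jund were each other's nearest neighbour (r = 0.980). Among the 9 factors r ran from 0.635 for Fosb with Maff to 0.982 for Fosl1 with Atf3. Fosb and Fosl1 passed the count filter through Reloading only, which limits what their r values can show.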

How the data were processed

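Poly-A RNA of gastrocnemius muscle was sequenced in 9 libraries. Per the labels and file header, the authors aligned reads with STAR 2.7.3a to GRCm38.p6 and counted with featureCounts 2.0.3, unstranded, on Ensembl 102. The deposited table holds raw counts of read pairs per gene and the exon length. The authors' methods name single reads. The deposited DESeq2 tables hold a mean signal over all libraries (counts divided by size factors), shrunken fold changes and p-values, and they were used for gene symbols only.

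Counts were tested with edgeR 4.0.16 in R 4.3.3. Genes were kept by filterByExpr (minimum count 10, minimum total 15), scaled by TMM, fitted in 1 quasi-likelihood model of all 9 libraries with group as the only term, and adjusted by Benjamini and Hochberg over 14851 genes with a threshold of 0.05. CPM and FPKM use the TMM-scaled totals, log2 CPM a prior count of 2, and SE were derived from the F statistic. DESeq2 1.42.0 was an alternative. The procedure was tested on simulated data.

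The members and lists were chosen with earlier results of these data known. Named genes are all 9 members, the 4 tested genes of each list with the largest absolute log2 change between Reloading and Unloading, Jdp2, Batf, Atf2, Atf4, Srf, Dusp1 and Zfp36, and the 3 genes most like each member with a mean log2 CPM of at least 2. The values of 2 genes of this rule are not reported here. Replicate pairs of a group differed beyond counting noise, so all libraries counted as separate. Deviations from the group means correlated over 0.1 between all 3 same-numbered pairs of Control and Reloading by the numbers in the descriptions, and in no other numbering or pair of groups, and no source says that a number marks a shared animal or batch. Alternatives were other scalings, filters, tests, blocks and left-out libraries.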

Additional observations from a re-analysis of the deposited data

Results flagged for a closer look

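Values that stood apart from the other 3 Control libraries by Dixon's criterion are given here. Chance marks about 1 in 20 groups in this way. Fosl1 was at 0.0829 CPM in Control 2 and at 0 in the other Control libraries, which is 1 count, and its share of the Fos family there was 0.601% against 0. The share of Fosb in the Fos family was 0.290% in Control 4, from 1 count, against between 2.73% and 3.13% in the others. The share of Jund in the Jun family was 18.9% in Control 3 against between 22.4% and 22.9%.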

How the results depend on the processing

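Under 19 alternatives, 495 of the 506 values for the 9 genes kept their direction and their side of the threshold and 11 did not. These values include those of Fosb and Fosl1, which passed the filter through Reloading only. The other genes were all higher in Reloading than in Unloading in each alternative that left more than 1 library per group. Against Control the same held for all of them except Jun. Fosl1 was removed by a minimum count of 30. Jun against Control was lost with the robust fit (adjusted p = 0.0635, edgeR), without Control 2 and Reloading 1 (0.0926), without Reloading 1 or Reloading 2, and with the block by title number (0.0516), its log2 change lying between 0.29 and 0.64 and its adjusted p between 5.38e-06 and 0.0944 over all alternatives. In Unloading against Control, no count filter gave 1 higher gene (Atf3, adjusted p = 0.00697, edgeR) and 1 lower (Jun, 0.00875), and leaving out 1 library gave between 0 and 1 lower, the 1 being Jun without Control 1 (0.0392). The genes passing in that comparison numbered 1470, and between 121 (without Unloading 1) and 1518 (without Reloading 1) over the left-out libraries, with 949 without Control 3. Leaving out an Unloading library leaves 1, whose spread is assumed to be like that of the others. From raw counts the Jund share was 13.5%, 15.1% and 14.5% in Control, Unloading and Reloading. The cause of these changes was not tested.

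Replicate numbers in the titles correlated between -0.201 and 0.075 and those in the descriptions between 0.017 and 0.361, and the latter were over 0.1 only for the 3 pairs of Control with Reloading (0.143 to 0.361), of which the highest joins the libraries with keratinocyte transcripts, Control 2 and Reloading 1. In Reloading against Control the block by description number changed no call of the 9 genes. With the replicate block by title number 5108, 1042 and 5705 genes passed in Reloading against Unloading, Unloading against Control and Reloading against Control, and with the block by description number 4902, 1479 and 6632.

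The signs that turned without a call were those of Fosl1 in Unloading against Control (-0.047 with the title block, and between -1.67 without Unloading 2 and 2.14 without Control 2 among the left-out libraries), of Maff in the same comparison (-0.076 without Control 3 to 0.27 without Control 4) and of Srf in Reloading against Unloading (-0.0006 without Unloading 1 to 0.24 without Unloading 2).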
